A study of Mus musculus with 24 samples.

Results

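The heat shock protein genes measured here are 10 mouse genes that encode molecular chaperones: Hspa1a, Hspa1b, Hspa8, Hsp90aa1, Hsph1, Dnajb1, Hspb1, Hspd1, Hspe1 and Hspa5. They were found by their gene symbol among the 34797 gene names on the array, after control spots had been set aside. A probe carried the name of 9 of the 10 genes, with 14 probes in all. No probe was named Hspa1b, so this gene has no value of its own.

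Heat shock proteins bind unfolded polypeptides and help them fold, keep them soluble or pass them on for degradation. In the cytosol, HSP70 proteins work in cycles that DNAJ co-chaperones start and nucleotide exchange factors reset, and HSP90 acts on signalling proteins that are almost folded. Heat shock factor 1 binds heat shock elements, inverted repeats of the letters GAA, in the promoters of the inducible members, while the unfolded protein response controls the chaperones of the endoplasmic reticulum.

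The study asked how the mammary gland of mouse strains that differ in susceptibility to mammary cancer responds to low dose ionizing radiation (LDIR). Female mice received a single whole-body X-ray dose of 10 cGy at 8 to 9 weeks of age, or a sham exposure. There were 8 groups of 3 arrays: for BALB/c an LDIR and a sham group at each of 3 times (2, 4 or 8 weeks from the exposure), and for SPRET/EiJ an LDIR and a sham group at the 4 weeks time only. BALB/c is an inbred laboratory strain that is prone to mammary tumours, and SPRET/EiJ is an inbred strain of another species, Mus spretus. The labels give no transgene and no further treatment for any group. The methods call the 3 samples of a group biological replicates, and each array is named below by its replicate letter (A, B or C).

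Total RNA of whole mammary tissue was hybridized to 1-colour arrays, so a level is a mean over all cells of the tissue, and fewer cells of a type cannot be told apart from less RNA per cell. Levels are given as the log2 of a probe's signal minus the 75th percentile of its array, and a level under 0 thus lies under that percentile. On every one of the 24 arrays the 14 probes were well above background. Between 64.6% and 72.6% of all probes were well above background on 23 arrays, and 57.1% were on SPRET/EiJ LDIR C. The negative-control signal was -13.8 on BALB/c 8 weeks sham A and lay between -4.62 and -2.09 on the others. The arrays lay on 3 slides of 8. Slide 1 held the 2 weeks arrays and 4 weeks sham A and B, slide 2 held 4 weeks sham C, the 4 weeks LDIR arrays, the 8 weeks sham arrays and 8 weeks LDIR A, and slide 3 held 8 weeks LDIR B and C and the SPRET/EiJ arrays. Markers of mammary epithelium were measured in every group, with a mean summed log2 level between 7.77 and 8.25 in the BALB/c groups. In SPRET/EiJ this level was 5.97 after LDIR and 6.23 after sham. A probe's levels depend on its own brightness, so levels are compared between arrays and never between probes.

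The probe for Hspa1a, the classic heat-inducible HSP70, lies in coding sequence (chr17:35107117-35107176, minus strand, mm9), and its annotation in the files lists transcripts of both Hspa1a and Hspa1b. It is shown because it is the reason why the values given for Hspa1a may include signal from both genes. The pair of Hspa8 probes printed after it is shown because these probes of 1 gene gave different patterns. Hspa8 encodes the constitutive HSP70 of the cytosol. The first starts at base 730 of its transcript (chr9:40611142-40611201, plus strand, mm9), and the second starts at base 1812 and crosses an intron (chr9:40612755-40613050, plus strand, mm9).
Hspa1a probe: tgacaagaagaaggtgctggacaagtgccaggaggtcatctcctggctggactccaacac
Hspa8 probe A_52_P12877: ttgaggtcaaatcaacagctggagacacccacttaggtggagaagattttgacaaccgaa
Hspa8 probe A_55_P2069721: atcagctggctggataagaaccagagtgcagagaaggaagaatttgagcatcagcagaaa

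The promoters of RefSeq genes (GRCm38.p6, 250 bases before to 50 after the start) were searched on both strands for heat shock element letters. A gene can have several promoters, so the members are set beside the share of genes with a match. GAANNTTC stood in 7.86% of 32851 promoters and in at least 1 promoter of 9.04% of genes, and so it did for 6 of the 8 members with a promoter entry, namely Hspa1a, Hspa1b, Hspb1, Hspd1, Hspe1 and Hsph1. TTCNNGAA stood in 8.52% of promoters, 9.6% of genes and the members Hspd1, Hspe1 and Hsph1. Both joined into 3 units, with a shared TTC, stood in 0.603% of promoters, 0.662% of genes and the same 3 members. Hspd1 and Hspe1 share the stretch that holds their matches, as do the near-identical promoters of Hspa1a and Hspa1b, so these are not independent counts. The endoplasmic reticulum stress element, CCAAT and CCACG with 9 bases between them, stood in 0.119% of promoters, 0.137% of genes and the member Hspa5. These matches are descriptions of letters, not of bound sites. No entry was matched for Hspa8 and Hsp90aa1.

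Stretches of 30 bases around a match are printed for members whose levels are described in detail, with the match in capitals, each read 5′ to 3′ on the strand of its gene. They lie at chr17:34972242-34972271 (minus) for Hspa1a, chr17:34959324-34959353 (minus) for Hspa1b, chr5:149636351-149636380 (minus) for Hsph1, chr1:55088056-55088085 (plus) for Hspe1, chr5:135887811-135887840 (plus) for Hspb1 and chr2:34772020-34772049 (plus) for Hspa5, all in GRCm38.p6.
Hspa1a promoter: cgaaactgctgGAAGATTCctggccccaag
Hspa1b promoter: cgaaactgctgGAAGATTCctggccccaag
Hsph1 promoter: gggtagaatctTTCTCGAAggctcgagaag
Hspe1 promoter: ccgttctaGAACCTTCCGGAAggccccgcg
Hspb1 promoter: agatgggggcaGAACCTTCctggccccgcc
Hspa5 promoter: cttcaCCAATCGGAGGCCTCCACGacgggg
The Hspa1a and Hspa1b stretches are identical, and their promoters matched at 296 of 300 bases. Hspd1 and Hspe1, the mitochondrial chaperonin HSP60 and its co-chaperonin HSP10, lie head to head, and their promoter entries shared 285 bases.

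The members differed widely in how much they varied between arrays of the same group. The within-group SD of the log2 level, pooled over the 8 groups, was 0.67 for Hspa1a, 0.57 for Hspb1, 0.41 for Hsph1, 0.37 for Hspd1, 0.27 for Hsp90aa1, 0.23 for Hspa5, 0.22 for Hspe1, 0.17 for Dnajb1 and 0.12 for Hspa8. The median over the 21380 gene probes detected on all arrays was 0.30. Hspa8 was at the 1.03 percentile of that distribution and Hspa1a at the 92.6 percentile.

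**Figure D1:**
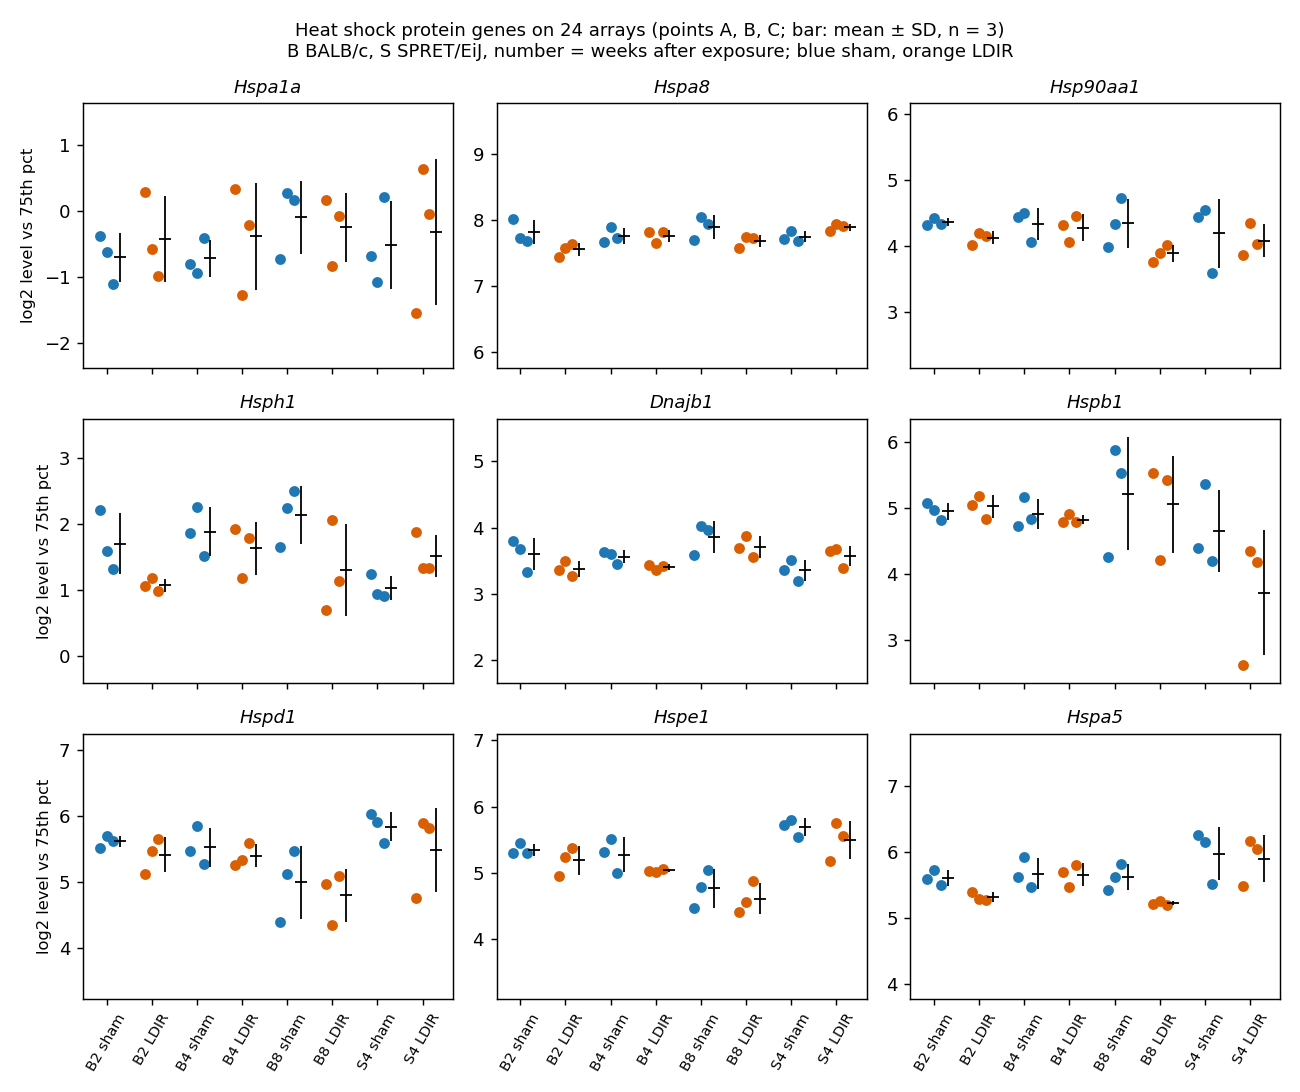
Log2 level of 9 heat shock protein genes on each of the 24 arrays, relative to the array's 75th percentile (y axis, each panel spanning the same number of log2 units), by group (x axis; B is BALB/c, S is SPRET/EiJ and the number gives weeks). Points are arrays A, B and C (blue sham, orange LDIR), and the bar beside them is their mean ± SD. Hspa8 stays between 7.44 and 8.05, whereas Hspa1a runs from -1.53 to 0.63 and Hspb1 from 2.63 to 5.87.

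Hspa1a levels in BALB/c at 2 weeks were 0.30, -0.57 and -0.98 after LDIR and -0.37, -0.62 and -1.11 after sham. At 4 weeks they were 0.33, -1.26 and -0.21 after LDIR and -0.80, -0.94 and -0.41 after sham. At 8 weeks they were 0.17, -0.84 and -0.07 after LDIR and -0.73, 0.28 and 0.16 after sham. At each time the ranges of the irradiated and the sham arrays overlapped. In SPRET/EiJ the levels were -1.53, 0.63 and -0.04 after LDIR and -0.69, -1.08 and 0.22 after sham, and the lowest and highest of all 24 arrays, which differed 4.49-fold, were both in the irradiated group. The LDIR minus sham difference of Hspa1a in BALB/c was 0.28 ± 0.37 (log2, standard error) at the first time, 0.34 ± 0.41 at the second and -0.15 ± 0.41 at the last, and in SPRET/EiJ it was 0.20 ± 0.61. Each 95% interval contained 0 and reached past 1.5-fold on both sides.

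At 2 weeks after LDIR in BALB/c, 1 of the 9 genes fell past the thresholds of the methods, an unadjusted p under 0.05 and a change over 1.5-fold, and 0 rose. Among all probes 3.05% passed them and 0.968% did so downward. The gene was Hsph1, which encodes HSP110, a nucleotide exchange factor for HSP70. Its levels were 1.06, 1.18 and 0.98 after LDIR and 2.21, 1.59 and 1.32 after sham. All 3 irradiated arrays lay under all 3 sham arrays, and sham A was the highest. The difference was -0.63 ± 0.25 (log2, standard error; 1.55-fold lower) with limma's unadjusted p = 0.042 and an adjusted p of 0.869. A second Hsph1 probe read -0.06, 0.15 and 0.25 after LDIR and 1.25, 0.44 and 0.40 after sham. It did not overlap either, and its difference of -0.58 ± 0.26 had an unadjusted limma p of 0.0652. Without sham A the difference of the first probe was -0.38 with a limma p of 0.0728, and the probe did not pass in 5 of the 6 fits that left out 1 array, nor with the methods' t-test.

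Hspa5, Hsp90aa1, Hspa8 and Dnajb1 were also lower at 2 weeks, by less than 1.5-fold, whereas Hspa1a (0.28) and Hspb1 (0.07) were higher. Hspa5, the endoplasmic reticulum HSP70 also known as BiP, had levels of 5.40, 5.29 and 5.27 after LDIR and 5.60, 5.73 and 5.50 after sham. Hsp90aa1, the inducible cytosolic HSP90, had levels of 4.01, 4.20 and 4.15 after LDIR and 4.32, 4.42 and 4.33 after sham. Hspa8 had levels of 7.44, 7.58 and 7.63 after LDIR and 8.02, 7.73 and 7.68 after sham. On the brightest probe of these 3 genes each irradiated array lay under each sham array, as in Hsph1. By that probe 4 of 9 genes did not overlap downward, where 6.38% of all probes did so. The differences were -0.29 ± 0.14 (Hspa5), -0.24 ± 0.14 (Hsp90aa1) and -0.26 ± 0.16 (Hspa8), with unadjusted limma p-values of 0.081, 0.129 and 0.146. The other Hspa8 probes overlapped between the groups. Probe A_55_P2069721 gave -0.27, and A_52_P12877 went the other way at 0.20. Over the 9 genes the differences ran from -0.63 to 0.28 with 7 under 0. Their median was -0.22, beside -0.02 over all probes. An exact permutation test of 3 against 3 arrays cannot give a p under 0.1, so lack of overlap alone cannot reach significance here.

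**Figure D2:**
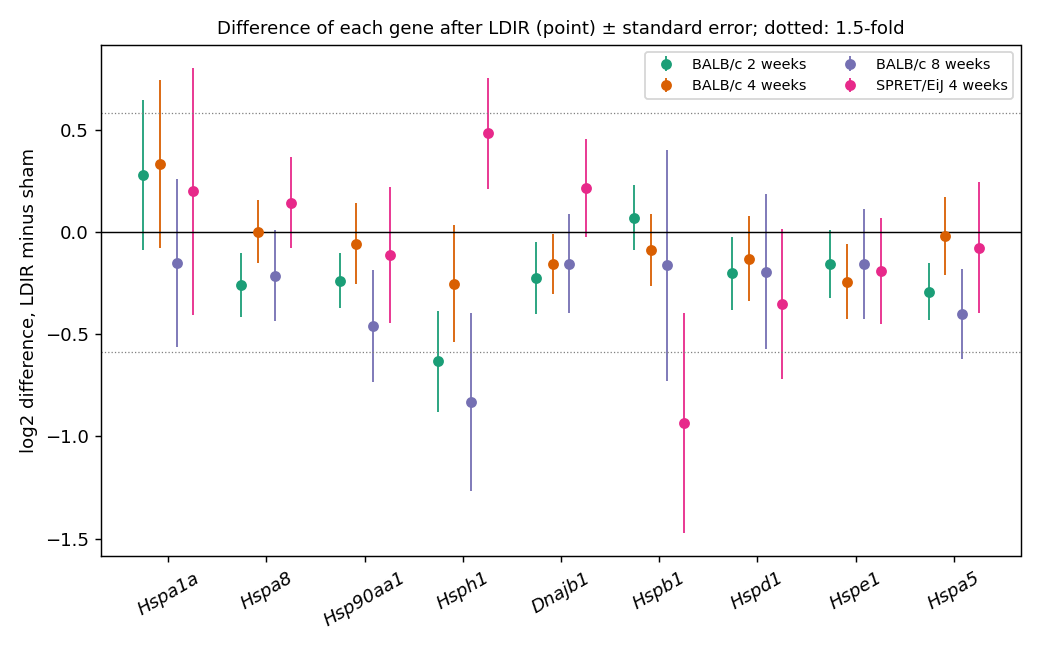
Log2 difference between LDIR and sham (y axis) for each of 9 heat shock protein genes (x axis) for the 3 BALB/c times and the SPRET/EiJ time. Points are the limma estimates with their standard errors, and the dotted lines mark 1.5-fold. Hsph1 lies at -0.63, -0.25 and -0.83 in BALB/c and at 0.49 in SPRET/EiJ.

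At 4 weeks in BALB/c 0 of 9 genes passed the thresholds, which 4.83% of all probes did. The differences ran from -0.25 ± 0.28 (Hsph1) to 0.34 ± 0.41 (Hspa1a). Hspa8 gave 0.00 ± 0.15, with a 95% interval from -0.37 to 0.37. Dnajb1, the HSP40 co-chaperone that stimulates HSP70, had levels of 3.44, 3.35 and 3.42 after LDIR and 3.63, 3.60 and 3.45 after sham. Its groups did not overlap, as was so downward for 6.18% of all probes, and its difference was -0.15 ± 0.15. Hsph1 levels were 1.93, 1.18 and 1.78 after LDIR and 1.86, 2.26 and 1.52 after sham, and they overlapped. Only sham C shared a slide with the irradiated arrays, and against this array alone 5 genes that lay under 0 over all 6 arrays lay above it, Hsph1 at 0.11.

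At 8 weeks in BALB/c 0 of 9 genes passed the thresholds, beside 1.92% of all probes. All 9 differences were under 0, from -0.83 (Hsph1) to -0.15, and their median was -0.19, beside -0.14 over all probes. Hspa5 levels were 5.22, 5.26 and 5.20 after LDIR and 5.44, 5.62 and 5.82 after sham. These groups did not overlap, which held downward for 4.05% of all probes, and the difference was -0.40 ± 0.22 with an unadjusted limma p of 0.121. Hsph1 levels were 0.71, 2.07 and 1.14 after LDIR and 1.65, 2.25 and 2.51 after sham, so that LDIR B lay within the sham range. The Hsph1 difference was -0.83 ± 0.44 with a limma p of 0.106 and a 95% interval from -1.90 to 0.24. Without LDIR B it was -1.21 and passed. Within slide 2, where LDIR A can be set against the 3 sham arrays, it was -1.43 ± 0.51 and did not pass, and there Hspa1a and Hspb1 lay above 0 at 0.26 and 0.31. Hsp90aa1 levels were 3.75, 3.89 and 4.02 after LDIR and 3.98, 4.33 and 4.72 after sham. Its difference was -0.46 ± 0.27, and without sham A, the array with the low negative-control signal, it was -0.64 and passed.

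The small heat shock protein gene Hspb1 encodes HSP27, which holds unfolding proteins and binds actin filaments. At 8 weeks its levels were 5.53, 4.21 and 5.42 after LDIR and 4.25, 5.87 and 5.52 after sham. The spread within each group was larger than the difference between the groups, which was -0.16 ± 0.57. The summed log2 level of the lymphocyte markers ran from 2.82 to 7.11 in the irradiated arrays and from 2.58 to 6.67 in the sham arrays at 8 weeks, and its part in the levels of Hspb1 was not tested.

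In SPRET/EiJ at 4 weeks 0 of 9 genes passed the thresholds, beside 2.21% of all probes. Hsph1 levels were 1.88, 1.33 and 1.34 after LDIR and 1.25, 0.95 and 0.91 after sham. Every irradiated array lay above every sham array, which held upward for 3.36% of all probes. The difference was 0.49 ± 0.27 with an unadjusted limma p of 0.117, and the second probe gave 0.73 ± 0.34 with a limma p of 0.0711. Hspb1 levels were 2.63, 4.34 and 4.17 after LDIR and 4.39, 5.36 and 4.20 after sham. LDIR A had the lowest Hspb1 level of all 24 arrays, and the difference of -0.93 ± 0.54 became -0.39 ± 0.39 without it. The summed lymphocyte marker level of the irradiated SPRET/EiJ arrays ran from 3.60 to 6.54, beside 3.50 to 3.69 in the sham arrays. The brown adipocyte markers ran from 3.18 to 6.32 and from 6.12 to 6.57. Their part in the Hspb1 difference was not tested.

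Whether the LDIR difference of a gene differed between the strains at 4 weeks was tested over the 12 arrays of that time. For Hsph1, BALB/c minus SPRET/EiJ was -0.74 ± 0.39 with an unadjusted limma p of 0.0885, and for its second probe it was -1.18 ± 0.46 with an unadjusted p of 0.0255 and an adjusted p of 0.955. The second probe passed the thresholds, as did 3.59% of all probes. With slide as a term in a fit of all 24 arrays, the values were -0.37 and -0.78, and neither probe passed. No gene's chosen probe passed this test. In BALB/c the LDIR difference of 0 of 9 genes passed a test for change between 2, 4 and 8 weeks (F test, 3.74% of all probes under 0.05), and the adjusted p of each member probe was 1.00.

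**Figure D3:**
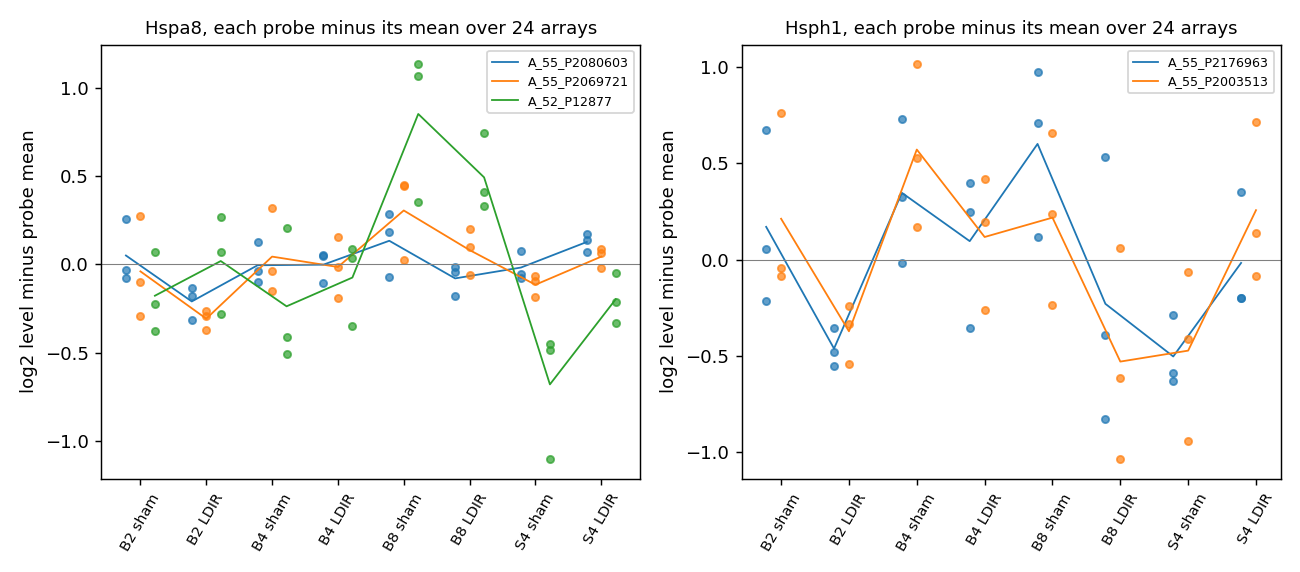
Log2 level of each probe minus its own mean over the 24 arrays (y axis) for the 3 Hspa8 probes and the 2 Hsph1 probes, by group (x axis). Points are arrays and lines join group means. The Hsph1 probes follow each other, and Hspa8 probe A_52_P12877 departs from the other two in more than 1 group. It rises by 1.09 from 4 to 8 weeks in sham BALB/c mice. In SPRET/EiJ sham mice its mean level is 3.00, beside 3.68 over the 24 arrays.

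Between the strains at 4 weeks, 0 of 9 genes passed the thresholds set for this comparison (unadjusted p under 0.001, over 1.5-fold) in either treatment. Among all probes 8.89% passed in sham mice and 5.67% in irradiated mice. In sham mice Hsph1 was 1.86, 2.26 and 1.52 in BALB/c, above all 3 SPRET/EiJ arrays. The difference was 0.85 ± 0.24 with an unadjusted limma p of 0.0109 and an adjusted p of 0.0554, and the second probe gave 1.04 ± 0.31 with an adjusted p of 0.0679. In irradiated mice the same probes gave 0.11 ± 0.30 and -0.14 ± 0.31, and the ranges overlapped. On its brightest probe Hspe1 was lower in BALB/c than in SPRET/EiJ without overlap in both treatments. The differences were -0.41 ± 0.20 in sham and -0.46 ± 0.24 in irradiated mice (adjusted limma p of 0.218 and 0.283). The other Hspe1 probes gave -0.29 and -0.46 in sham mice, where both overlapped. In irradiated mice they gave -0.29 and -0.55 without overlap. Hspb1 was 4.78, 4.91 and 4.78 in irradiated BALB/c, above all SPRET/EiJ arrays, and its difference of 1.11 ± 0.47 had an adjusted p of 0.201. Groups did not overlap for 38% of all probes in sham and 33.5% in irradiated mice. No slide held arrays of both strains at 4 weeks. Slide 3, with all SPRET/EiJ arrays, also held BALB/c 8 weeks LDIR B and C, and through these the fit of all 24 arrays can carry a slide term. In it the first Hsph1 probe gave 1.38 ± 0.62 in sham and 1.01 ± 0.54 in irradiated mice, the second gave 0.62 in irradiated mice, and 0 of 9 genes passed in either. At 4 weeks the mean summed level of the mammary epithelium markers was 7.82 (sham) and 8.01 (LDIR) in BALB/c. In SPRET/EiJ it was 6.23 and 5.97, and its part in the strain differences was not tested. The probes were designed on another genome than that of SPRET/EiJ, and sequence differences under a probe cannot be told apart from differences in level.

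Over time in sham BALB/c mice the mitochondrial pair was lowest at 8 weeks. Hspe1 levels at 2 weeks were 5.30, 5.44 and 5.29. At 4 weeks they read 5.32, 5.51 and 4.99, and by 8 weeks 4.46, 4.78 and 5.04. All 3 arrays at 8 weeks lay under those at 2 weeks, and one of them lay above 4 weeks sham C. How often groups did not overlap among all probes was not counted here. The difference of 8 minus 2 weeks was -0.58 ± 0.23 with an unadjusted limma p of 0.0316, just short of the 1.5-fold threshold. Hspd1 was 5.52, 5.70 and 5.63 at 2 weeks and 4.39, 5.13 and 5.47 at 8 weeks, a difference of -0.62 ± 0.30 with a limma p of 0.0717. The background was 17.7% of all probes for 8 minus 2 weeks and 16% for 8 minus 4 weeks, and 0 of 9 genes passed either. The 8 minus 2 weeks comparison set slides 1 and 2 apart, whereas 4 weeks sham C shared slide 2 with the 8 weeks arrays. With slide as a term in a fit of all 24 arrays, the 8 minus 2 weeks differences were -0.16 ± 0.34 (Hspe1) and -0.23 ± 0.56 (Hspd1).

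The same contrasts in the irradiated BALB/c arrays were added after the sham values were seen. Hspd1 levels at 2 weeks were 5.13, 5.47 and 5.65. At 4 weeks they read 5.26, 5.34 and 5.60, and by 8 weeks 4.98, 4.35 and 5.09, so that every array at 8 weeks lay under every earlier one. It fell by 0.61 ± 0.24 from 2 to 8 weeks (limma, unadjusted p = 0.0354) and by 0.59 ± 0.24 from 4 to 8 weeks (limma, unadjusted p = 0.0397). Hspd1 was the only gene of 9 whose brightest probe passed the thresholds in both, which 20.3% and 22.6% of all probes passed. The share of all probes without overlap was not counted for these contrasts. Without LDIR B of 8 weeks, whose summed lymphocyte marker level was 7.11, the differences were -0.38 and -0.36 and did not pass. With slide as a term in a fit of all 24 arrays they were -0.05 and -0.42, which did not pass either. The Hspe1 differences were -0.58 ± 0.19 and -0.43 ± 0.19, under 1.5-fold, with unadjusted limma p-values of 0.0129 and 0.0498. Hspe1 probe A_55_P2089358 gave -0.65 ± 0.19 from 2 to 8 weeks (limma, unadjusted p = 0.00704), which passed. From 4 to 8 weeks it gave -0.51 ± 0.19, under 1.5-fold. The remaining Hspe1 probe gave -0.32 ± 0.18 and -0.29 ± 0.18 and passed in neither. As a mean of 3 arrays, sham mice had a summed brown adipocyte marker level of 6.48 at 2 weeks, of 6.85 at 4 weeks and of 4.33 by 8 weeks. In irradiated mice it was 6.45, 5.77 and 4.31. Brown adipocytes are rich in mitochondria, and the part of these markers in the differences of Hspd1 and Hspe1 was not tested.

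The Hspa8 probes went apart over time. In sham mice probe A_52_P12877 read 3.75, 3.46 and 3.30 at 2 weeks. At 4 weeks it read 3.88, 3.18 and 3.27, and by 8 weeks 4.04, 4.81 and 4.74. All arrays at 8 weeks were above all earlier arrays. The share of all probes without such overlap was not counted. The rise from 4 to 8 weeks was 1.09 ± 0.30 with an unadjusted limma p of 0.00602 and an adjusted p of 0.101. It passed the unadjusted thresholds, as did 16% of all probes. Of the 4 weeks sham arrays only sham C lay on the slide of the 8 weeks sham arrays. The other Hspa8 probes gave 0.14 ± 0.19 and 0.26 ± 0.24 for the same contrast. In irradiated mice A_52_P12877 rose by 0.57 ± 0.22 from 4 to 8 weeks (limma, unadjusted p = 0.0295), under 1.5-fold. There the other Hspa8 probes gave -0.08 ± 0.15 and 0.10 ± 0.16. Within groups the deviations of A_52_P12877 correlated with those of the brightest Hspa8 probe with r = 0.23, whereas A_55_P2069721 gave 0.87. The corresponding values were 0.92 for the Hsph1 probes and 0.97 and 0.95 for the Hspe1 probes. A pair of the Hspe1 probes overlap in sequence with an offset of 3 bases and share 56 matching bases, so they are not independent readings.

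Members moved together within groups in blocks. The following values are Pearson correlations of deviations from the group mean over 24 arrays, which share their array, slide and tissue composition, and they are given as descriptions. Hsp90aa1 and Hspa5 gave 0.85, Hspd1 and Hspe1 0.83, Hspb1 and Hspd1 0.80, and Hsp90aa1 and Hspe1 0.77. Hsph1 went with Dnajb1 (0.67) and Hspa8 (0.63), and Hspa8 with Dnajb1 (0.61). Hspa1a and Hsph1, both heat-inducible, gave -0.06. Marker lists of cell types moved with some of the members. Hspd1 gave 0.87 with the summed level of the brown adipocyte markers, 0.85 with white adipocyte markers and -0.78 with lymphocyte markers. Hspb1 gave 0.74 with white adipocyte and -0.85 with lymphocyte markers, and Hspa1a gave 0.76 with mammary epithelium markers. In lymphocyte markers 3 arrays stood apart, BALB/c 8 weeks sham A (6.67), 8 weeks LDIR B (7.11) and SPRET/EiJ LDIR A (6.54), while the other 21 lay between 2.58 and 3.95. The Hspb1 levels of these 3 arrays were 4.25, 4.21 and 2.63, each the lowest of its group. Hspd1 (4.39, 4.35 and 4.76) and Hspa1a (-0.73, -0.84 and -1.53) were also at their group's lowest on these 3 arrays. Without them, an alternative added after the values were seen, Hspb1 gave 0.15 with lymphocyte and 0.0043 with white adipocyte markers and 0.13 with Hspd1, so these relations rested on the 3 arrays. Hspd1 then gave 0.47 with lymphocyte, 0.55 with white adipocyte and 0.71 with brown adipocyte markers. Hsp90aa1 and Hspa5 gave 0.87 over the 21 arrays, Hspd1 and Hspe1 0.83, Hsph1 and Hspa8 0.69, Hsph1 and Dnajb1 0.49, and Hspa1a gave 0.71 with mammary epithelium markers. Hspa1a and Hsph1 gave 0.29 there. With white adipocyte markers Hspa1a gave -0.69 over the 21 arrays, beside 0.34 over 24. With lymphocyte and with endothelium markers it gave -0.52 each over the 21 arrays. The part of cell composition in these relations was not tested.

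**Figure D4:**
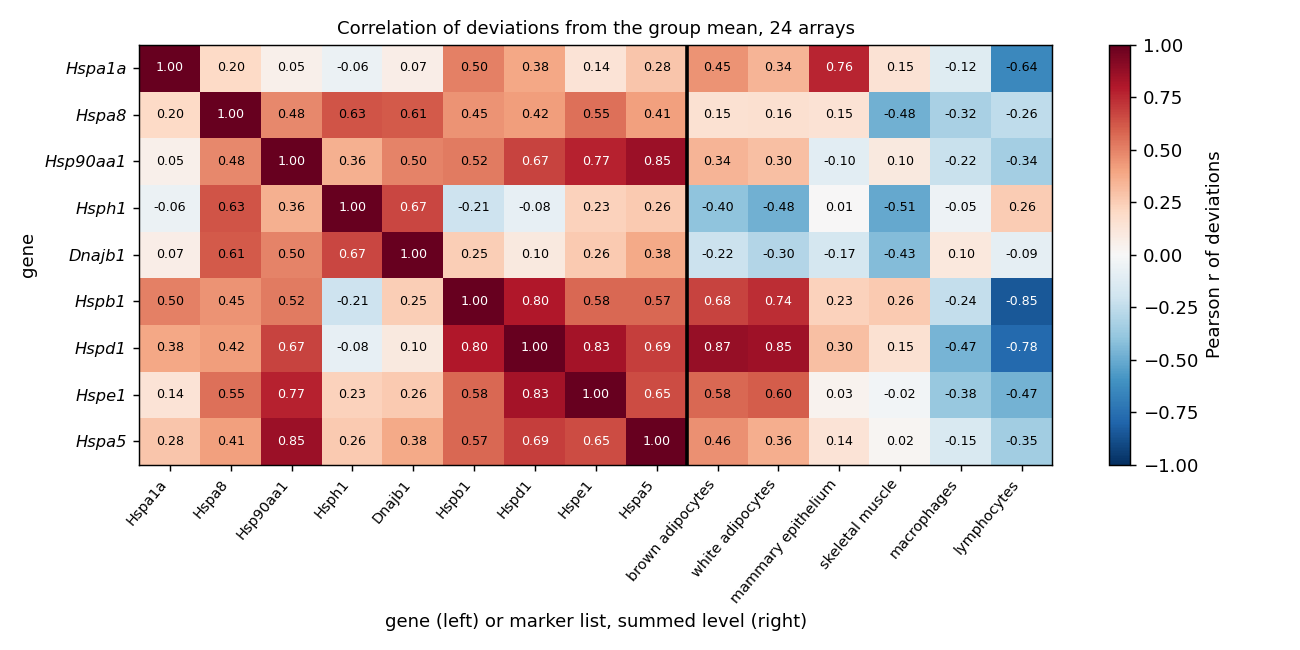
Pearson correlation, over 24 arrays, of each heat shock protein gene's deviation from its group mean (rows) with that of the other genes and, right of the line, with the summed level of cell type marker lists (columns). Red is positive and blue is negative. Hspd1 stands at 0.87 with brown adipocyte markers and Hspb1 at -0.85 with lymphocyte markers, the latter resting on 3 arrays (0.15 without them).

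Genes were ranked by their correlation, over the 24 arrays, with the mean deviation of cytosolic members Hspa1a, Hsph1, Dnajb1, Hsp90aa1 and Hspa8. Hspb1 was not part of this mean. Deviations were not scaled, so Hspa1a and Hsph1, with within-group SDs of 0.67 and 0.41, weighed more than Dnajb1 (0.17) and Hspa8 (0.12). Among genes detected on all arrays the first 10 included Pgm3 (r = 0.80), Ube2v2 (0.79), Rbm8a (0.78), Hmgn1 (0.78), Fkbp11 (0.77) and Ppp4r1 (0.76), with NAP114346-1 (0.78) and 3 probes that carry no gene name. Without the 2 arrays where the members' mean deviated most, Pgm3 gave 0.79, Ube2v2 and Rbm8a 0.74 and Ppp4r1 0.72. NAP114346-1 then gave 0.70, Fkbp11 0.67 and Hmgn1 0.66. The 8 genes of the cytosolic chaperonin CCT, which folds actin and tubulin, had a median r of 0.65 with 7 of them over 0.5. The 17 chaperones of the endoplasmic reticulum had a median of 0.51 with 9 over 0.5. It was 0.44 for 17 HSP70 and HSP90 co-chaperones (5 over 0.5), 0.44 for 9 other cytosolic HSP70, HSP90 and HSP110 genes (4) and 0.37 for 8 DNAJ co-chaperones (2). It was lower for mitochondrial chaperones and proteases (0.22, 0 of 9), unfolded protein response regulators (0.19, 1 of 8), heat shock factors (0.16, 1 of 4) and small heat shock proteins (-0.09, 0 of 7). Among the marker lists it was 0.46 for mammary epithelium (2 of 8) and -0.45 for lymphocytes (0 of 3). Over all genes the median was -0.002 and 4.60% lay over 0.5.

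Other chaperone genes, 91 in all, were read from lists of heat shock factors, HSP70 and HSP90 relatives, small heat shock proteins, co-chaperones, CCT, endoplasmic reticulum and mitochondrial chaperones and unfolded protein response regulators. After LDIR 1 rose and 1 fell past the thresholds at each of 2, 4 and 8 weeks in BALB/c, and 0 did in SPRET/EiJ. The shares of all probes past them were 3.05%, 4.83% and 1.92% at these times and 2.21% in SPRET/EiJ, and nothing particular to the list is read from its counts. At 2 weeks these were Hspb7, a small heat shock protein of muscle (at least 1.20-fold higher), and the heat shock factor gene Hsf5 (at least 1.26-fold lower), both named after their values were seen. Neither was well above background on any array of its lower group, so their folds are bounds against the dimmest measurable signal. The bounds do not reach 1.5-fold, so both calls rested on signals that were not measured in the lower group, and without them 0 of these genes rose or fell at 2 weeks. At 4 weeks Dnajc7, a DNAJ co-chaperone of HSP70 and HSP90 also named afterwards, fell by 1.04 ± 0.39 with groups that overlapped. At 4 weeks Cryaa, the lens small heat shock protein, rose by 0.68 ± 0.16 (limma, unadjusted p = 0.00479) from a level of -3.48, and it did not pass with normexp background correction or with quantile normalization. At 8 weeks Fkbp5, an HSP90 co-chaperone of steroid receptors that glucocorticoids induce, was 2.18 ± 0.51 after LDIR and 4.04 ± 0.11 after sham (SD, n = 3). It fell by 1.86 ± 0.32 with an unadjusted limma p of 0.00115 and an adjusted p of 1.00. Ppp1r15a, which encodes the stress-induced phosphatase subunit GADD34, rose by 0.80 ± 0.26 (limma, unadjusted p = 0.0204), and it did not pass within slide 2, with replicate or slide as a term in the 6-array fit, or without LDIR A, LDIR B, sham B or sham C.

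Immediate early genes are transcribed within minutes of a stimulus. Of 16 such genes 8 rose past the thresholds after LDIR at 8 weeks and 0 fell, and the median difference was 0.94. Among all probes 0.169% rose past them, but these genes were singled out after their values were seen, so nothing is read from that share. Atf3 (2.55), Fosb (2.52), Fos (2.44) and Nr4a1 (1.83) led them. The count was 3 with the methods' t-test, and 3, 4 and 5 without LDIR A, sham A and sham C. Within slide 2 it was 5, where LDIR A is the only irradiated array. The summed level of these genes was highest on that array (8.48, beside 7.29 and 7.68 on LDIR B and C and 6.21 to 7.16 after sham). The 9 heat shock protein genes had a median of -0.19 on the same arrays.

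**Figure D5:**
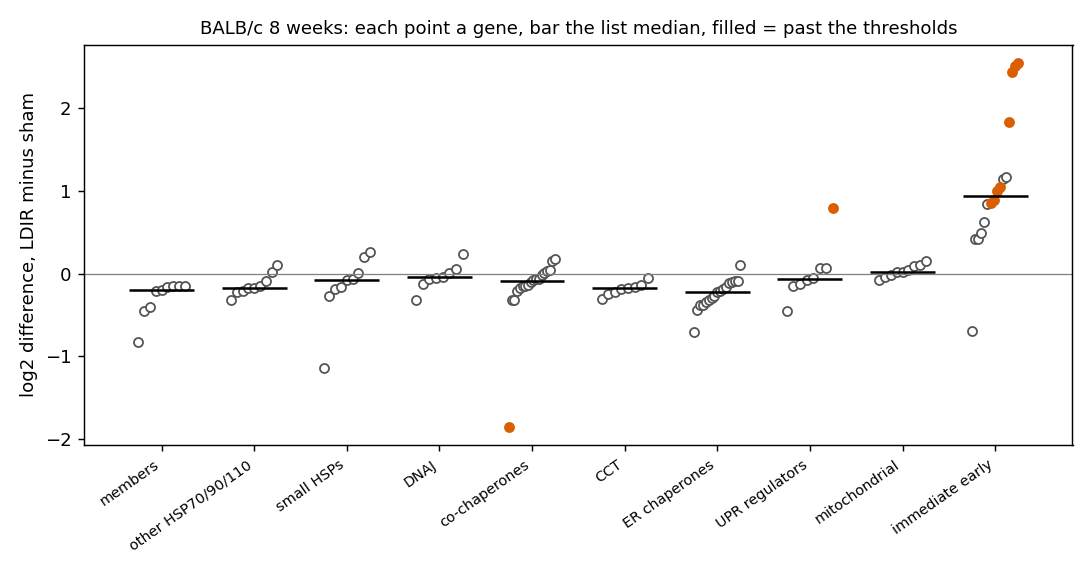
Log2 difference between LDIR and sham in BALB/c at 8 weeks (y axis) for the 9 heat shock protein genes (first column), other chaperone lists and the immediate early genes (x axis). Each point is a gene, the bar is the list median, and filled points passed the thresholds. Of the 16 immediate early genes 8 are filled and of the 9 heat shock protein genes 0 are.

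Between the strains in sham mice, 2 of the 91 other chaperone genes were higher in BALB/c and 4 were lower past the thresholds, which 8.89% of all probes passed. In irradiated mice 0 were, beside 5.67% of all probes. Cryaa differed most, at -3.48 ± 0.17 in BALB/c and -0.62 ± 0.22 in SPRET/EiJ (SD, n = 3), a difference of -2.86 ± 0.19 with an adjusted limma p of 0.000348. The differences were -2.59 ± 0.41 for Trib3, a pseudokinase of the unfolded protein response, and -2.42 ± 0.23 for Grpel2, a nucleotide exchange factor of mitochondrial HSP70. The others, named after their values were seen, were Hspb7 at -1.40 ± 0.24, Bag4, which binds HSP70, at 1.67 ± 0.20, and Hsf5, at least 1.11-fold higher in BALB/c and not well above background in SPRET/EiJ. The Hsf5 bound does not reach 1.5-fold, so its call rested on a signal that was not measured there. Trib3 did not pass in 4 of the 6 fits that left out 1 array. With slide as a term in a fit of all 24 arrays Cryaa (-2.12) and Trib3 (-3.04) did not pass and Grpel2 (-3.14) did.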

How the data were processed

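The authors deposited scanner output of Agilent Feature Extraction 10.10.1.1, one array per sample, with mm9 annotation. Per the file headers its intensity values were background-subtracted and detrended within each array. They also deposited log2 values, normalized to the 75th percentile and centred on each probe's median, which hold no levels and served as an alternative.

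Outlier spots were left out (3777 over all arrays), log2 was taken of the processed intensity, each array was centred on its 75th percentile and spots of a probe were averaged, which gave 55681 probes. No spot was saturated. Precision is limited by having 3 arrays a group. Groups were compared with limma 3.58.1 (R 4.3.3 with the data.table package, version 1.17.8) on the 6 arrays of a comparison, on 12 for the strains' LDIR effects, on 18 for LDIR effects over time and on 9 for the course in sham mice. Benjamini-Hochberg adjustment ran over all probes. Motifs were searched in Python 3.11.15 and figures drawn with matplotlib 3.10.9. The procedure was tested on simulated data.

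Replicate letters recur in every group. Over probes detected on all arrays, same-letter arrays of LDIR and sham deviated together at 2 weeks (r = 0.167, 0.481 and 0.172). Over all probes only letter B was above 0.1. The letters were read as possible pairs at that time from these values alone. The main tests were unpaired at every time, and a block for replicate was an alternative. In the other comparisons at least 1 letter was under 0.1. For LDIR and sham at 8 weeks in BALB/c the values were -0.56, -0.56 and 0.55.

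Where several probes carry 1 gene name, the one brightest over all arrays stands for the gene, and the rest are given where they disagree. From the chaperone lists, up to 3 genes per comparison are named, those with the largest difference past the thresholds, without overlap and well above background on the higher group's arrays. Immediate early genes were singled out after their values were seen. The members and lists were chosen with earlier results of these data known. The alternatives concerned the values (those of the authors on the log2 scale, quantile normalization, normexp with an offset of 50, outlier spots retained, dim probes dropped, a mean over a gene's probes), the test (the methods' t-test, a block for replicate or for slide, a single fit to 24 arrays) and the arrays (each left out, or all 9 BALB/c sham arrays against SPRET/EiJ).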

Additional observations from a re-analysis of the deposited data

Results flagged for a closer look

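For the second Hsph1 probe, BALB/c minus SPRET/EiJ at 4 weeks was -1.18 (log2), which passed the unadjusted thresholds of the limma test of that difference and failed the adjustment over all probes (adjusted p = 0.955). It did not pass with slide as a term or in 4 of the 12 fits that left out 1 array. For the first probe every irradiated array lay under every sham array in BALB/c at 2 weeks (-0.63) and above every sham array in SPRET/EiJ at 4 weeks (0.49). These times differ. At 4 weeks the BALB/c difference of this probe was -0.25 over 6 arrays and 0.11 against the 1 sham array on the slide of the irradiated ones. The difference between the 2 weeks and the SPRET/EiJ comparison was not tested.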

How the results depend on the processing

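Of 2223 values recomputed for the 9 genes, 1952 kept their direction and their side of the thresholds, 23 came to pass, 24 no longer passed and 224 changed sign. None of the 224 passed in either fit, and 152 of them came from leaving out 1 array. The values below are those of the comparisons described, a choice made after the sign changes were seen. The cause of each change was not tested. The number of genes past the thresholds at 2 weeks, 1 over all 6 arrays, was 0 with quantile normalization, the methods' t-test and the fits of 24 arrays with and without slide. At 8 weeks it was 1 rather than 0 in both fits of 24 arrays. It ran from 0 to 1 on leaving out 1 array at 2, 4 and 8 weeks and in the difference between the strains, and from 0 to 2 in the contrasts of sham or irradiated mice over time that reach 8 weeks. In the change of the LDIR difference from 4 to 8 weeks it was 1 rather than 0 with slide as a term, and 0 to 1 without 1 array. In irradiated mice it was 0 rather than 1 for 8 minus 2 weeks with normexp, with quantile normalization and in both fits of 24 arrays, and the same held for 8 minus 4 weeks except with slide, where it was 2. The immediate early count of 8 at 8 weeks was 3 with the methods' t-test or the replicate block, 5 within slide 2 and 3 to 7 without 1 array.

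Signs changed for differences that did not pass. At 4 weeks in BALB/c they were, with normexp, -0.077 (Hspa8) and 0.018 (Hsp90aa1), with quantile normalization 0.011 (Hsp90aa1), 0.0075 (Hspb1) and 0.11 (Hspa5), and with slide as a term or within slide 2 0.22 (Hsp90aa1), 0.11 (Hsph1), 0.13 (Hspd1), 0.044 (Hspe1) and 0.19 (Hspa5). At 8 weeks slide gave 0.26 (Hspa1a) and 0.31 (Hspb1). In SPRET/EiJ quantile normalization gave 0.016 (Hsp90aa1) and 0.066 (Hspa5). Between irradiated strains Hspa8 was 0.043 with quantile normalization and 0.023 with slide. Without 1 array the ranges that crossed 0 were, at 2 weeks, -0.076 to 0.56 (Hspa1a) and -0.0067 to 0.16 (Hspb1). At 4 weeks they were -0.045 to 0.069 (Hspa8), -0.19 to 0.054 (Hsp90aa1), -0.18 to 0.044 (Hspb1), -0.26 to 0.028 (Hspd1), -0.12 to 0.11 (Hspa5) and -0.020 to 0.78 (Hspa1a), whose upper end, without LDIR B, passed. At 8 weeks they were -0.47 to 0.14 (Hspa1a), -0.64 to 0.26 (Hspb1) and -0.49 to 0.045 (Hspd1), and in SPRET/EiJ -0.41 to 0.066 (Hsp90aa1), -0.55 to 0.017 (Hspd1), -0.30 to 0.13 (Hspa5) and -0.27 to 0.81 (Hspa1a).

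With the replicate block Hsph1 at 2 weeks was -0.63 and still passed, and the block changed no count of the 9 genes. The tests over the 3 times were not repeated under the alternatives, only their pairwise contrasts. The authors' log2 values are centred on each probe and gave no levels. Of 72 group mean levels, 29 moved by at least the SD of their group with normexp and 7 did with quantile normalization.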

Other observations

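After LDIR at 4 weeks in BALB/c, 2 of 4 macrophage genes and 2 of 5 milk protein genes rose past the thresholds, and 2 of 4 brown adipocyte and 2 of 8 mammary epithelium genes fell, beside 4.83% of all probes past them. At 2 weeks 1 of 6 lymphocyte genes rose (3.05% of all probes), and at 8 weeks 0 genes of any marker list passed (1.92%). In SPRET/EiJ 1 of 7 skeletal muscle genes rose and 1 fell (2.21%). Between the strains in sham mice 1 brown adipocyte and 1 white adipocyte gene were higher in BALB/c and 1 lymphocyte gene was lower (8.89%). In irradiated mice 1 gene each of brown adipocytes, white adipocytes, mammary epithelium and skeletal muscle was higher, and 1 gene each of brown adipocytes and lymphocytes was lower (5.67%). Nothing particular to a list is read from these counts. Endothelium and erythrocyte markers did not pass in any of these comparisons, nor did circadian clock genes.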
